A study of Mus musculus with 20 samples.

Results

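The 46 genes described here encode proteins that carry cells into and through mitosis: the entry kinases and cyclins, the spindle assembly checkpoint, the regulators of anaphase, the kinetochore, the chromosomal passenger complex, the spindle motors and condensin. They are listed by name for their function, and no threshold on a measured value is part of the rule. All 46 were among the 37620 genes of the count table and among the 17824 genes that passed a filter on low counts. Their lowest count in any sample was 95 reads, for Cdc25c.

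Messenger RNA was sequenced from B220+ cells of mice of the C57BL/6 background, taken from 4 normal spleens, 8 VavPBcl2/vector lymphomas and 8 VavPBcl2/Myc lymphomas. VavPBcl2 is a transgene in which regulatory sequence of the Vav gene drives the survival gene Bcl2 in blood cells, and lymphomas of both kinds carry it. The lymphomas had been transduced with an empty vector or with Myc, a growth-promoting transcription factor. The normal samples are labelled neither with the transgene nor with a transduction, so in a comparison with normal cells the transgene, the transduction and the tumour state cannot be told apart. B220+ cells were enriched with magnetic beads and were not cultured. The labels give no age, and nothing in them says that the samples of a group came from separate mice, so the p-values reflect the spread among these samples, which may be technical.

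Mitosis begins when Cdk1, bound to cyclin A or a B-type cyclin and freed of inhibitory phosphates by Cdc25 phosphatases, becomes active. Plk1 and the Aurora kinases act with it. Kinetochores built on the centromere then capture spindle microtubules, and unattached kinetochores hold the cell in metaphase through the checkpoint proteins Bub1, BubR1 (Bub1b), Bub3, Mad2 (Mad2l1) and Mps1 (Ttk). Once all are attached, Cdc20 activates the anaphase promoting complex, which destroys cyclin B and securin (Pttg1) and so frees separase (Espl1) to cut cohesin. Most of these genes are transcribed late in the cell cycle, from promoters bound by the CCAAT-binding factor NF-Y, by the MuvB complex at the CHR element and by FoxM1, and their transcripts are common in any dividing cell population, normal B cells included.

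The promoter letters are shown first because most of these genes share a pair of promoter motifs, a feature that played no part in their choice. RefSeq promoter windows of build GRCm38.p6 were found for 37 of the 46 genes, each from 250 bases before to 50 bases after a transcription start. Windows were searched on both strands for a CCAAT box and for the CHR element, spelled TTTGAA. They were also searched for the E-box that Myc binds together with Max, spelled CACGTG, and for an E2F site, spelled TTCCCGC. Neighbouring motifs may share letters. The 7 stretches below run from 150 bases before to 30 bases after the start, 5′ to 3′ on the strand of the gene, with the CCAAT box and the CHR element in capitals, each in either direction. They belong to 4 genes with higher mean levels in Myc than in vector lymphomas, to the checkpoint gene Mad2l1, and to Cdc25b and Pttg1. Cdc25b and Pttg1 had lower mean levels in Myc than in vector lymphomas. For Pttg1 that difference did not pass the test described below.
Cdk1 (chr10:69352883-69353062, minus strand): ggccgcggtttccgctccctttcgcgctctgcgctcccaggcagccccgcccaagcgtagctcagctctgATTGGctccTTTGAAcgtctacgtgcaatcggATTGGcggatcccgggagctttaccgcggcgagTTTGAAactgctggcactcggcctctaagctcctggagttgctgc
Ccnb2 (chr9:70421525-70421704, minus strand): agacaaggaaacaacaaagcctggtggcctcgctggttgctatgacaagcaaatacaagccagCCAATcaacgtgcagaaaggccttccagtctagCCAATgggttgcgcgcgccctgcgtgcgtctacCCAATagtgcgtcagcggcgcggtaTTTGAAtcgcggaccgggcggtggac
Cdc20 (chr4:118437314-118437493, minus strand): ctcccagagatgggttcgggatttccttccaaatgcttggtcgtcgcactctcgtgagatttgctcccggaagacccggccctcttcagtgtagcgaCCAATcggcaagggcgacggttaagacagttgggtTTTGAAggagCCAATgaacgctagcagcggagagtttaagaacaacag
Ube2c (chr2:164769779-164769958, plus strand): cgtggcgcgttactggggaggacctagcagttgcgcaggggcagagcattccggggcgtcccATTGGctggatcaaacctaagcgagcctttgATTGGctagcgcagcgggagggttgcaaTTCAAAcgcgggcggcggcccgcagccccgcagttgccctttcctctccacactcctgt
Mad2l1 (chr6:66535071-66535250, plus strand): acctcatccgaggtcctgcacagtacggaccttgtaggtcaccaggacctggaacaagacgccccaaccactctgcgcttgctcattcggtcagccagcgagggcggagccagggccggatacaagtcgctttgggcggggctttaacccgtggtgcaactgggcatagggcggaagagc
Cdc25b (chr2:131186798-131186977, plus strand): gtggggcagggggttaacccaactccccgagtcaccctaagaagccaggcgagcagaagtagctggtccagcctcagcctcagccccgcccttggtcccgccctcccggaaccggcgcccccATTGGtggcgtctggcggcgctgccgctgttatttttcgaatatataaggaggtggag
Pttg1 (chr11:43425952-43426131, minus strand): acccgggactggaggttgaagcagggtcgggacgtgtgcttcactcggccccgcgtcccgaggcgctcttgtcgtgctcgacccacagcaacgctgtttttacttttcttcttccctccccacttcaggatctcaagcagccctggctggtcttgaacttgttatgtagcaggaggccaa

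A CCAAT box was found in 28 of the 37 genes (75.7%), against 37.4% of all 32851 RefSeq windows of the same length. TTTGAA was found in 27 genes (73.0%) against 17.9% of windows, and both motifs stood in 24 genes (64.9%) against 7.0%. The E-box was found in 3 genes (8.1%) against 7.2%, and the E2F letters in 1 gene (2.7%) against 4.6%. Cdk1, Ccnb2, Cdc20 and Ube2c held both motifs, Cdc25b held a CCAAT box without TTTGAA, and Mad2l1 and Pttg1 held neither. The median log2 fold change between Myc and vector lymphomas was 0.61 with a CCAAT box and 0.64 without, and 0.62 both with and without TTTGAA. Between Myc lymphomas and normal cells it was 1.72 with a CCAAT box and 1.67 without, and 1.80 with TTTGAA and 1.47 without, and these differences were not tested. A match is a string of letters in a window and not a measured binding site.

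Each sample had 28.7 to 56.3 M reads counted to genes (M for 1000000). Levels are given as CPM, the reads of a gene per 1000000 reads of TMM-scaled library size. Samples are numbered within their group. Run numbers in the labels, compared within each sequencing instrument, were taken to place normal sample 1 and vector lymphomas 1 to 6 in later runs. This split was inferred. Earlier runs hold 13 samples, including the 8 Myc lymphomas, so run and group overlap. Within the vector group the samples of earlier runs also carry another title prefix than those of later runs. There, run and the series of titles cannot be told apart. No title prefix is shared between groups. Normal sample 2 and Myc lymphoma 5 stood apart. Normal sample 2 had the highest level of its group for 37 of the 46 genes and a summed level of 9 erythroid markers (hemoglobin and other red cell genes) of 1770 CPM, against 123 to 132 CPM in the other 3. Myc lymphoma 5 had an erythroid sum of 52700 CPM and a distortion by transcript length that is described further down.

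Levels of the mitosis and spindle genes were lowest in normal B cells, higher in vector lymphomas and highest in Myc lymphomas. The sum over the 46 genes was 1505, 1961, 1248 and 1382 CPM in the 4 normal samples. It ran from 2113 to 4111 CPM (median 2984) in vector lymphomas and from 3541 to 5647 CPM (median 3922) in Myc lymphomas. Every lymphoma lay above every normal sample in this sum, and the 2 lymphoma groups overlapped. Without the TMM factors, on plain library size, normal sample 2 (2184 CPM) lay above vector lymphoma 7 (2070 CPM) and Myc lymphoma 5 stood at 2391 in place of 3541 CPM. The median over genes of the log2 ratio to the normal mean was -0.25 to 0.44 in normal samples, 0.61 to 1.51 in vector and 1.39 to 2.21 in Myc lymphomas. In bulk RNA, a larger share of dividing cells and more of these transcripts in each dividing cell cannot be told apart.

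**Figure D1:**
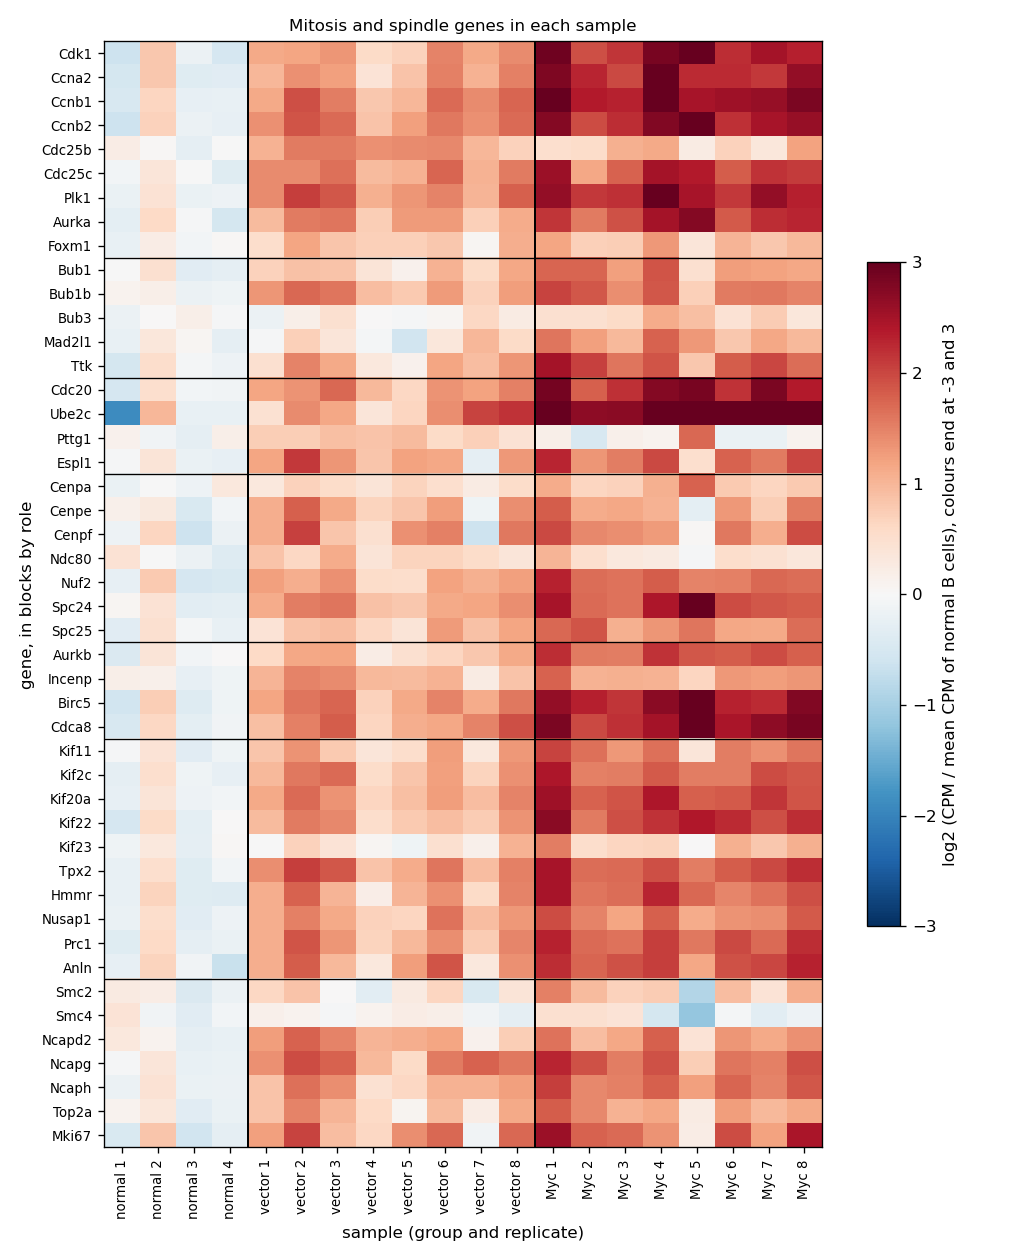
Log2 ratio of the CPM of each of the 46 genes (rows, in blocks by role) to its mean in normal B cells, in each of the 20 samples (columns); colours end at -3 and 3. Normal sample 2 is the reddest of its group, Ube2c is at the end of the scale in most Myc lymphomas, and Cdc25b and Pttg1 are paler in most Myc lymphomas than in vector lymphomas.

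Each gene was tested with edgeR's quasi-likelihood test across all 17824 genes, with Benjamini-Hochberg adjustment, and called at an adjusted p under 0.05. Between vector lymphomas and normal cells 37 of the 46 genes rose and 0 fell, where 7.46% of all genes rose and 3.36% fell; all 46 fold changes were above 0, and DESeq2 also called 0 lower. Their median log2 fold change was 1.15, against -0.03 over all genes. All 8 vector lymphomas lay above all 4 normal samples for 19 genes, which was so for 7.33% of all genes. Between Myc and vector lymphomas 29 genes rose and 1, Cdc25b, fell, where 26.6% of all genes rose and 21.9% fell. The median was 0.63, against 0.08 over all genes, and 13 genes showed no overlap between the groups, against 5.12% of all genes. Between Myc lymphomas and normal cells 43 genes rose and 0 fell, against 21.5% and 17.9% of all genes; 45 of the 46 fold changes were above 0, DESeq2 called 0 lower, and the genes not called were Pttg1, Ndc80 and Smc4. The median was 1.74, against 0.08 over all genes, and all 8 Myc lymphomas lay above all normal samples for 36 genes, against 13.1% of all genes. The 3 comparisons share samples pairwise and are given side by side.

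Both steps together gave 5 patterns. A set of 24 genes rose at both steps, among them Cdk1, the cyclins Ccna2, Ccnb1 and Ccnb2, Plk1, Aurka, Aurkb and Cdc20. Another 12 rose from normal to vector and were not called from vector to Myc: Foxm1, Bub1b, Espl1, Cenpe, Cenpf, Ndc80, Incenp, Nusap1, Ncapd2, Ncapg, Top2a and Mki67. For 5 genes, Bub1, Bub3, Mad2l1, Ube2c and Cenpa, the call was made at the step from vector to Myc and not at the earlier one. Cdc25b alone among the 46 rose at the first step and fell at the next. Pttg1, Kif23, Smc2 and Smc4 were called at neither. A gene called at one step and not at the other was not tested for a difference between the steps.

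**Figure D2:**
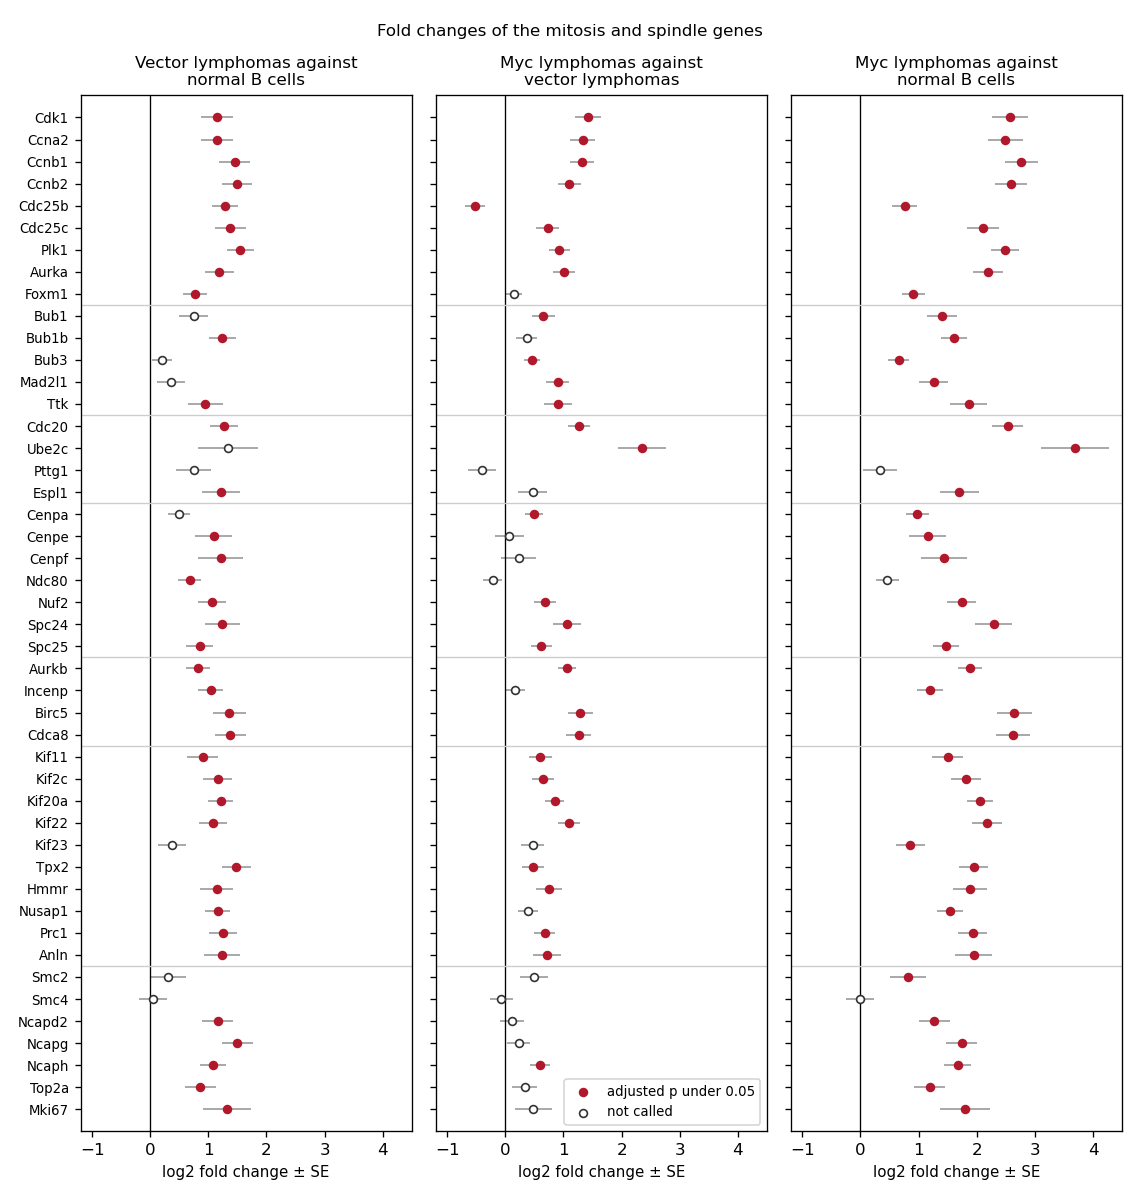
Log2 fold change (points) and its standard error (bars) of each of the 46 genes in the 3 comparisons, with filled points for genes at an adjusted p under 0.05. Nearly all points lie right of 0 in the comparisons with normal cells, while in the comparison of Myc with vector lymphomas they spread from -0.52 (Cdc25b) to 2.35 (Ube2c).

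The counts of each role group below stand beside the shares over all genes. Of all genes 7.46% rose from normal to vector, 26.6% from vector to Myc and 21.5% from normal to Myc. Of the 9 mitotic entry genes all rose from normal to vector (median log2 fold change 1.29). From vector to Myc 7 rose, Cdc25b fell and Foxm1 was not called (median 1.01). For Cdk1, the kinase that drives entry, the 4 normal samples had 11.0, 29.9, 15.0 and 12.0 CPM, the vector lymphomas 25.4 to 47.9 (median 38.1) and the Myc lymphomas 64.5 to 159 (median 90.2). All Myc lymphomas lay above all vector lymphomas, and only normal sample 2 reached the vector range. Cdk1 was 2.67-fold higher in the Myc than in the vector group (log2 1.42 ± 0.22 SE, adjusted p = 3.9e-05) and 2.23-fold higher in vector lymphomas than in normal cells (1.15 ± 0.28, adjusted p = 0.011).

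The B-type cyclins, the partners that Cdk1 needs, separated the groups completely. Ccnb1 stood at 5.92, 13, 7.03 and 7.14 CPM in normal samples, 14.4 to 31.6 (median 23.1) in vector and 41.3 to 86.1 (median 49.6) in Myc lymphomas. Ccnb2 stood at 9.08, 22.4, 12.4 and 11.7 CPM in normal samples, 25.3 to 51.4 (median 38.7) in vector and 54.3 to 135 (median 81) in Myc lymphomas. For both cyclins the 3 groups did not overlap at all. Ccnb1 rose 2.74-fold at the first step (adjusted p = 0.0015) and 2.49-fold at the next (adjusted p = 4.1e-05), and Ccnb2 rose 2.81-fold (adjusted p = 0.0011) and 2.14-fold (adjusted p = 0.00021). Plk1, the kinase for centrosome maturation, showed the same separation, at 8.96 to 14.0 CPM in normal samples, 21.0 to 43.4 in vector and 44.4 to 85.1 in Myc lymphomas.

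Over all samples the paralogous phosphatases that activate Cdk1 went different ways from vector to Myc. Cdc25b had 128, 114, 91 and 109 CPM in normal samples, 177 to 324 (median 290) in vector and 130 to 256 (median 171) in Myc lymphomas. Both lymphoma groups lay wholly above normal cells, and Myc and vector lymphomas overlapped. Cdc25b was 2.44-fold higher in vector lymphomas than in normal cells (log2 1.29 ± 0.22, adjusted p = 0.00077), and its log2 fold change between Myc and vector lymphomas was -0.52 ± 0.17 (adjusted p = 0.015). Cdc25c had 2.40, 3.31, 2.53 and 1.98 CPM in normal samples, 4.93 to 8.56 (median 6.87) in vector and 5.72 to 15.1 (median 11.2) in Myc lymphomas. It rose 2.61-fold (adjusted p = 0.0018) and then 1.66-fold (adjusted p = 0.0054). The later call of Cdc25c was lost with later runs as a term (log2 0.74, adjusted p = 0.086) and within the earlier runs (0.80, adjusted p = 0.24). The fall of Cdc25b did not hold within the earlier runs, where the log2 difference was -0.07 (adjusted p = 0.91). Vector lymphomas 7 and 8, the 2 of those runs, had the lowest levels of their group, 221 and 177 CPM.

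Foxm1, a transcription factor of the late cell cycle, was called at the first step and not at the next. It had 20.4, 27.9, 22.4 and 24.3 CPM in normal samples, 24.7 to 54.1 (median 40.2) in vector and 30.7 to 58.3 (median 44.2) in Myc lymphomas. The lymphoma groups overlapped almost fully. It rose 1.71-fold from normal to vector (adjusted p = 0.014), and its log2 difference between Myc and vector lymphomas was 0.14 ± 0.15 (adjusted p = 0.48).

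**Figure D3:**
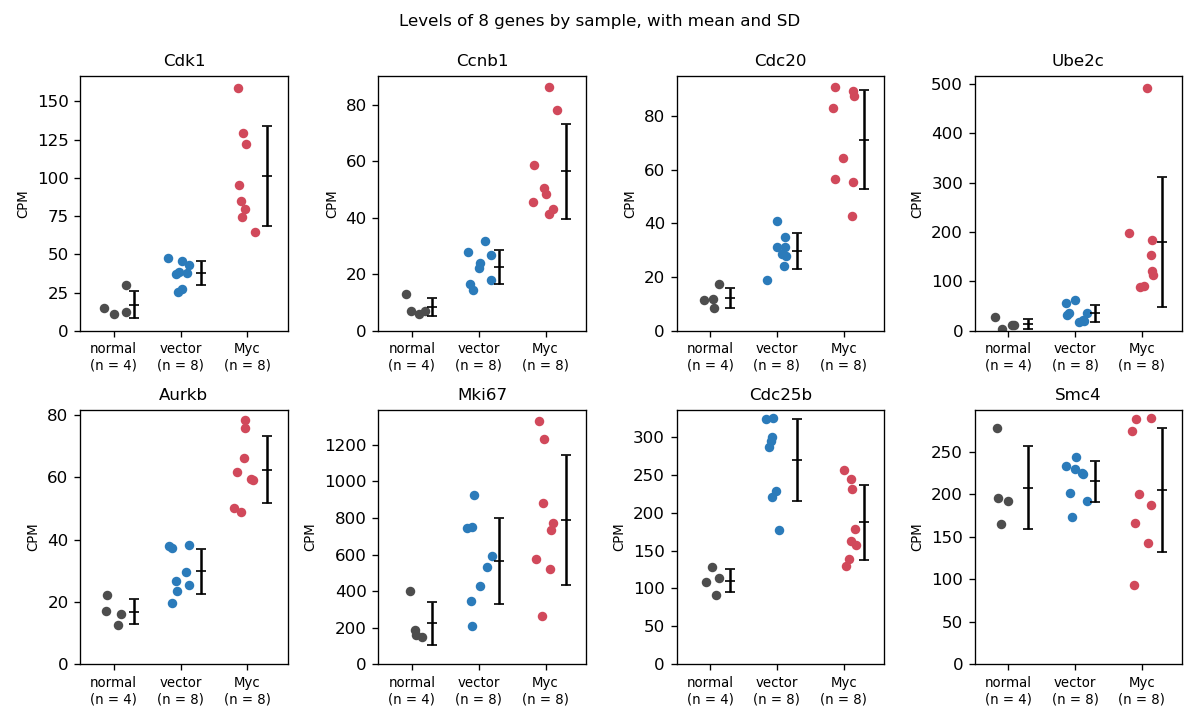
CPM of 8 genes in every sample (points), with the mean and SD of each group (bars): 4 normal samples, 8 vector lymphomas and 8 Myc lymphomas. Cdk1, Ccnb1, Cdc20, Ube2c and Aurkb are higher in every Myc than in every vector lymphoma, Mki67 and Smc4 overlap, and Cdc25b is higher on average in vector lymphomas; 1 Myc lymphoma, number 5, has 492 CPM of Ube2c and 264 CPM of Mki67.

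Of the 5 checkpoint genes, 2 rose from normal to vector (Bub1b and Ttk), 4 rose from vector to Myc (all but Bub1b), and all 5 rose from normal to Myc. Mad2l1, whose protein inhibits Cdc20 at unattached kinetochores, had 15.0, 22.1, 18.0 and 14.5 CPM in normal samples, 11.7 to 34.8 (median 22.2) in vector and 30.5 to 59.3 (median 39.9) in Myc lymphomas. Normal cells and vector lymphomas overlapped widely, and vector lymphoma 7 reached into the Myc range. It was 1.86-fold higher in the Myc than in the vector group (adjusted p = 0.00094), with a log2 difference of 0.36 ± 0.24 from normal to vector (adjusted p = 0.38).

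Bub1b, which encodes the checkpoint pseudokinase BubR1, had 27.2, 28.6, 22.4 and 23.1 CPM in normal samples, 40.6 to 83.6 (median 60.9) in vector and 41.7 to 103 (median 75.7) in Myc lymphomas. Every lymphoma was above every normal sample, and the lymphoma groups overlapped almost fully. It rose 2.37-fold at the first step (adjusted p = 0.0014), and the log2 difference at the next was 0.37 ± 0.18 (adjusted p = 0.089), 0.46 (adjusted p = 0.015) without Myc lymphoma 5 and 0.45 (adjusted p = 0.043) without vector lymphoma 2. Bub3, the WD40 partner of Bub1 and BubR1, had 71.2, 80.5, 90.3 and 77.3 CPM in normal samples, 71.1 to 123 (median 86.9) in vector and 101 to 172 (median 115) in Myc lymphomas. It rose 1.38-fold from vector to Myc (adjusted p = 0.010), the smallest called rise among the 46 together with that of Tpx2.

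The 4 genes of mitotic exit held both the steepest rise and a gene that did not follow the rest. Cdc20, the activator of the anaphase promoting complex, had 8.61, 17.4, 11.7 and 11.5 CPM in normal samples, 18.9 to 40.9 (median 29.9) in vector and 42.9 to 90.7 (median 73.7) in Myc lymphomas. The 3 groups did not overlap. Cdc20 rose 2.41-fold at the first step (log2 1.27 ± 0.24, adjusted p = 0.0018) and 2.39-fold at the next (1.26 ± 0.19, adjusted p = 2.2e-05).

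Ube2c, the ubiquitin-conjugating enzyme of the same complex, had 3.75, 28.0, 12.0 and 12.0 CPM in normal samples, 17.9 to 62.9 (median 34.0) in vector and 89.7 to 492 (median 137) in Myc lymphomas. All Myc lymphomas lay above all vector lymphomas, and Myc lymphoma 5 was the highest of all samples. It was 5.09-fold higher in the Myc than in the vector group (log2 2.35 ± 0.41, adjusted p = 0.00011), the largest change among the 46, and its log2 difference was 1.95 (adjusted p = 0.00014) without Myc lymphoma 5. The vector lymphomas of the earlier runs, numbers 7 and 8, had the highest levels of their group, 56.7 and 62.9 CPM. With run as a term the log2 difference between Myc and vector lymphomas was 1.34 (adjusted p = 0.079), and that between vector lymphomas and normal cells was 2.19 (adjusted p = 0.011) in place of 1.34 ± 0.51 (adjusted p = 0.097).

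Securin and separase, the inhibitor and the protease it restrains, differed. Pttg1 (securin) had 22.6, 19.3, 17.2 and 23.4 CPM in normal samples and 27.7 to 39.6 (median 34.4) in vector lymphomas. In Myc lymphomas it ran from 14.9 to 67.8 CPM (median 22.3), and without Myc lymphoma 5 the highest was 23.4. The 7 other Myc lymphomas lay below all 8 vector lymphomas and no higher than the highest normal sample, while Myc lymphoma 5 lay above every other sample. Over all samples the log2 difference between Myc and vector lymphomas was -0.40 ± 0.24 (adjusted p = 0.16), and without Myc lymphoma 5 it was -0.77 (adjusted p = 4e-05). Without that sample vector lymphomas also passed the test against normal cells (log2 0.77, adjusted p = 0.0015 in place of 0.75 and adjusted p = 0.12). Between Myc and vector lymphomas of the earlier runs the difference was -0.24 (adjusted p = 0.79), Myc lymphoma 5 included. Espl1 (separase) rose 2.34-fold from normal to vector (adjusted p = 0.018; 0.05 to 0.065 when normal sample 1, 3 or 4 was left out), with a log2 difference of 0.47 ± 0.25 from vector to Myc (adjusted p = 0.12), 0.60 (adjusted p = 0.038) without Myc lymphoma 5 and 0.66 (adjusted p = 0.028) without vector lymphoma 2.

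Of the 7 centromere and kinetochore genes, 6 rose from normal to vector (all but Cenpa), 4 from vector to Myc (Cenpa, Nuf2, Spc24 and Spc25), and 6 from normal to Myc (all but Ndc80). The Ndc80 complex, which grips microtubule ends, is built of Ndc80, Nuf2, Spc24 and Spc25, and 3 of these 4 genes were called from vector to Myc. Spc24 had 6.49, 8.34, 4.96 and 5.03 CPM in normal samples, 10.9 to 19.0 (median 13.9) in vector and 19.2 to 68.6 (median 23.4) in Myc lymphomas. The 3 groups did not overlap, though the gap between 19.0 and 19.2 was narrow. Spc24 was 2.08-fold higher in the Myc than in the vector group (adjusted p = 0.0012), Nuf2 1.60-fold (adjusted p = 0.0058) and Spc25 1.54-fold (adjusted p = 0.007).

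Ndc80 itself had 20.4, 14.9, 13.3 and 11.6 CPM in normal samples, 19.5 to 32.7 (median 23.5) in vector and 14.6 to 30.6 (median 20) in Myc lymphomas. The Myc and vector lymphomas overlapped widely. Its log2 difference between Myc and vector lymphomas was -0.22 ± 0.16 (adjusted p = 0.26), and 0.01 within the earlier runs. Its call against normal cells in vector lymphomas was lost without normal sample 2, 3 or 4 or vector lymphoma 1 or 3 (adjusted p = 0.052 to 0.13). Cenpe, a kinesin that moves chromosomes to the metaphase plate, had 27.7, 30.5, 18.3 and 23.5 CPM in normal samples, 22.8 to 86.6 (median 54.1) in vector and 20.5 to 88.1 (median 55.0) in Myc lymphomas. The lymphoma groups covered the same range, with a log2 difference of 0.07 ± 0.25 (adjusted p = 0.84), and vector lymphomas were 2.13-fold above normal cells (adjusted p = 0.030). That call was lost when normal sample 1, 3 or 4 or vector lymphoma 2 was left out (adjusted p = 0.057 to 0.11). Cenpa, the histone variant that marks the centromere, rose 1.40-fold from vector to Myc (adjusted p = 0.013), with 128 CPM in Myc lymphoma 5 against at most 80.9 in the other 7.

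The chromosomal passenger complex corrects wrong attachments and later directs cytokinesis. All 4 of its genes rose from normal to vector, and 3 rose from vector to Myc. Aurkb, its kinase, had 12.6, 22.1, 16.1 and 17.0 CPM in normal samples, 19.7 to 38.2 (median 28.2) in vector and 48.8 to 78.4 (median 60.4) in Myc lymphomas. The Myc lymphomas stood clear of both other groups, and normal sample 2 lay inside the vector range. Aurkb was 2.09-fold higher in the Myc than in the vector group (log2 1.06 ± 0.16, adjusted p = 2.7e-05) and 1.76-fold higher in vector lymphomas than in normal cells (adjusted p = 0.012). Survivin (Birc5) and borealin (Cdca8), which place the complex on the centromere, were 2.44-fold and 2.39-fold higher in the Myc than in the vector group (adjusted p = 8.4e-05 and 8.5e-05).

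Incenp, the scaffold that joins these subunits, had 56.5, 55.6, 41.7 and 45.6 CPM in normal samples, 59.6 to 140 (median 99.0) in vector and 77.7 to 169 (median 111) in Myc lymphomas. Lymphomas of both kinds lay above normal cells and overlapped each other. It rose 2.06-fold at the first step (adjusted p = 0.0035), and its log2 difference at the next was 0.16 ± 0.17 (adjusted p = 0.43). Relative to the length of the longest annotated transcript, Incenp was the most abundant of the 4 in normal cells. It had 15.4 CPM per kb, against 8.69 for Aurkb, 6.99 for Cdca8 and 4.22 for Birc5. Which transcript was expressed was not measured, so this order rests on the length chosen. In Myc lymphomas Cdca8 stood at 43.4, Incenp at 35.5, Aurkb at 32.0 and Birc5 at 26.4 CPM per kb.

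Among the 10 genes for spindle motors, microtubule binding and cytokinesis, 9 rose from normal to vector (all but Kif23), 8 from vector to Myc (all but Kif23 and Nusap1) and all 10 from normal to Myc. Kif22, a kinesin that pushes chromosome arms outward, had 9.96, 21.0, 11.5 and 14.2 CPM in normal samples, 20.4 to 41.7 (median 27.2) in vector and 41.7 to 92.7 (median 64.7) in Myc lymphomas. The lymphoma groups met at 41.7 CPM, and normal sample 2 reached just into the vector range. Kif22 was 2.14-fold higher in the Myc than in the vector group (log2 1.10 ± 0.19, adjusted p = 0.00011). Kif20a, a kinesin of the central spindle, was 1.81-fold higher with no overlap (60.3 to 103 against 28.0 to 57.4 CPM, adjusted p = 0.00028).

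Tpx2, the activator of Aurora A on the spindle, had the strongest call of this group at the first step (2.78-fold, adjusted p = 0.00062) and the weakest at the next (1.38-fold, adjusted p = 0.044). The later call was lost with DESeq2, with RLE size factors, with no filter, with later runs as a term and within the earlier runs. It was also lost when normal sample 1, 3 or 4, any vector lymphoma but 2 and 3, or any Myc lymphoma but 2, 3 and 5 was left out (adjusted p = 0.052 to 0.1). Nusap1, which bundles spindle microtubules, had 16.2, 26.9, 14.9 and 17.0 CPM in normal samples, 29.3 to 57.9 (median 40.3) in vector and 40.8 to 72.6 (median 50.8) in Myc lymphomas. It rose 2.23-fold at the first step (adjusted p = 0.0022), with a log2 difference of 0.39 ± 0.17 at the next (adjusted p = 0.071), and it passed the test without Myc lymphoma 5 (0.44, adjusted p = 0.038), vector lymphoma 2 (0.45, adjusted p = 0.048) or vector lymphoma 6 (0.47, adjusted p = 0.035). Kif23, a centralspindlin motor, was called from vector to Myc when vector lymphoma 2 or 8 or Myc lymphoma 2, 3 or 5 was left out (log2 0.5 to 0.6), and was the least changed of the group from normal to Myc (1.81-fold, adjusted p = 0.010).

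The 7 genes of condensin, topoisomerase and the chromosome surface had a median log2 fold change of 0.33 from vector to Myc. At that step 1 rose, Ncaph, where 26.6% of all genes rose. From normal to vector 5 had risen, where 7.46% of all genes rose. With the length offset described further down 4 rose from vector to Myc (median 0.63), against 26.0% of all genes. With later runs as a term 0 did (median 0.49), against 9.2% of all genes. Ncaph, the subunit that closes the condensin I ring, had 14.7, 22.6, 14.5 and 14.7 CPM in normal samples, 22.7 to 52.0 (median 34.3) in vector and 39.1 to 70.1 (median 51.8) in Myc lymphomas. Normal samples lay below both lymphoma groups, which overlapped each other. It rose 2.11-fold (adjusted p = 0.003) and then 1.5-fold (adjusted p = 0.0078).

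The ATPase subunit Smc4, shared by condensin I and II, was called in none of the 3 comparisons. It had 278, 192, 165 and 196 CPM in normal samples, 173 to 244 (median 225) in vector and 93.4 to 290 (median 194) in Myc lymphomas. All 3 groups overlapped, and the log2 differences were 0.05 ± 0.24 from normal to vector, -0.07 ± 0.20 from vector to Myc and -0.01 ± 0.24 from normal to Myc (adjusted p = 0.92, 0.80 and 0.97). Its partner Smc2 was called against normal cells in Myc lymphomas (log2 0.81 ± 0.31, adjusted p = 0.044), a call lost when any 1 of the 4 normal samples, or Myc lymphoma 1, 2, 4, 6 or 8, was left out. The non-SMC subunits of condensin I moved further: from normal to vector Ncapg rose 2.84-fold (adjusted p = 0.001) and Ncapd2 2.23-fold (adjusted p = 0.0074). The call of Ncapd2 was lost with later runs as a term (log2 0.76, adjusted p = 0.08, in place of 1.16). In normal cells Smc4 was the most abundant of the 46 per length of the longest annotated transcript, at 48.1 CPM per kb. Ncapd2 had 20.9, Smc2 8.02, Ncaph 6.18 and Ncapg 3.57.

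Mki67, whose protein Ki-67 coats mitotic chromosomes and serves as the common stain for cycling cells, had 163, 401, 152 and 186 CPM in normal samples, 211 to 924 (median 561) in vector and 264 to 1330 (median 753) in Myc lymphomas. Normal sample 2 lay inside both lymphoma ranges, and the lymphoma groups overlapped widely. Its log2 difference was 1.32 ± 0.42 from normal to vector (adjusted p = 0.044), 0.48 ± 0.32 from vector to Myc (adjusted p = 0.22) and 1.80 ± 0.43 from normal to Myc (adjusted p = 0.0027). The first of these calls was lost when normal sample 1, 3 or 4, any vector lymphoma but 4 and 7, or Myc lymphoma 2 was left out (adjusted p = 0.051 to 0.14). Mki67 alone made up 7.45 to 25.5% of the summed CPM of the 46 genes, depending on the sample. Top2a, which untangles sister chromatids, rose 1.81-fold from normal to vector (adjusted p = 0.041; 0.057 to 0.14 without normal sample 1, 3 or 4 or vector lymphoma 1, 2, 3, 6 or 8), with a log2 difference of 0.33 ± 0.21 from vector to Myc (adjusted p = 0.19).

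Per length of the longest annotated transcript, the order of the 46 genes differed between groups. Which transcript of a gene was expressed was not measured, so the order of genes within a group rests on the length chosen. In normal cells Smc4 (48.1 CPM per kb), Cdc25b (35.7), Cenpa (25.7) and Bub3 (23.4) led, and Cdc25c (1.31) and Ttk (1.35) were last. In vector lymphomas Cdc25b (87.1) led, ahead of Mki67 (56.2) and Smc4 (49.9). In Myc lymphomas Ube2c (82.4) and Mki67 (78.3) stood ahead of Cdc25b (60.6) and Ccnb2 (54.6). Without Myc lymphoma 5 that order turned: Mki67 (85.8) led, ahead of Cdc25b (63.3), Ube2c (62.1) and Ncapd2 (53.8). Neighbours in these orders mostly differ by less than the spread between samples, whose coefficient of variation in Myc lymphomas ran from 17.2% (Aurkb) to 73.3% (Ube2c, 32.3% without Myc lymphoma 5).

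The number of calls between the lymphomas depended on the treatment of the runs. With a term for the later runs, 13 genes rose from vector to Myc, where 9.2% of all genes rose, and Cdc25b was no longer called. These 13 were Cdk1, Ccna2, Ccnb1, Ccnb2, Plk1, Aurka, Cdc20, Spc24, Aurkb, Birc5, Cdca8, Kif20a and Kif22. The rises lost were those of Bub1, Bub3, Mad2l1, Ttk, Cdc25c, Ube2c, Cenpa, Nuf2, Spc25, Anln, Hmmr, Kif11, Kif2c, Prc1, Tpx2 and Ncaph. Within the earlier runs, with 8 Myc and 2 vector lymphomas, 2 genes were called, Cdc20 (log2 1.18, adjusted p = 0.044) and Aurka (1.28, adjusted p = 0.041), where 2.97% of all genes rose. The median difference there was 0.74, against 0.63 over all samples, and 44 of 46 genes kept their sign.

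The comparisons with normal cells fared differently. From normal to vector 29 genes rose with run as a term, against 4.86% of all genes. The calls of Anln, Cenpe, Cenpf, Espl1, Kif11, Mki67, Ncapd2, Ndc80 and Top2a were lost, and Ube2c was gained. Within the earlier runs, with 2 vector lymphomas and 3 normal samples, 0 of the 46 genes and 0.621% of all genes rose by edgeR's adjusted p, while 30 of the 46 and 9.63% of all genes had an unadjusted p under 0.05 and the median difference was 0.97. From normal to Myc 44 genes rose with run as a term, against 20.6% of all genes. Within the earlier runs, which hold all 8 Myc lymphomas and 3 normal samples, 40 rose, against 12.7% of all genes, with a median of 1.72.

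Transcript length moved with the change from vector to Myc in these libraries. Over 16928 genes of known length, the median log2 fold change was 0.35 for transcripts of 1000 to 2000 bases, -0.06 for 2000 to 4000 bases and -0.30 above 4000 bases. The mitosis and spindle genes lay above these medians in each class: 1.03 in the first (10 genes, 9 called higher), 0.67 in the second (22 genes, 15 higher and 1 lower) and 0.47 in the third (14 genes, 5 higher). Spearman's rho between length and log2 fold change was -0.41 over the 46 genes and -0.35 over all, given as a description since genes share their libraries. Without Myc lymphoma 5 it was -0.32 over the 46 genes and -0.27 over all. Myc lymphoma 5 was the extreme: its transcripts of up to 1000 bases had a median log2 deviation of 2.03 from the mean of all samples and those over 6000 bases -1.90. It was the lowest of the Myc group for 24 of the 46 genes and the highest for 9.

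**Figure D4:**
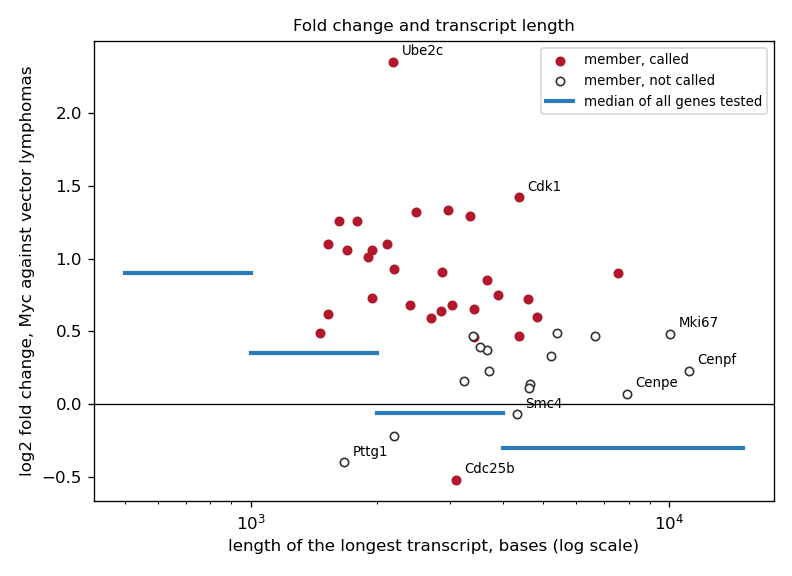
Log2 fold change between Myc and vector lymphomas (vertical) against the length of the longest transcript in bases (horizontal, log scale) for the 46 genes, filled where called; horizontal bars give the median of all genes tested in 4 length classes. Most points lie above the bar of their class, and the uncalled genes Mki67, Cenpf and Cenpe are among the longest.

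A fit with a length-dependent offset in each sample, added after these values were seen, called 37 genes higher and 2 lower (Cdc25b and Pttg1) from vector to Myc, where 26.0% of all genes rose. It called Mki67 (log2 0.98, adjusted p = 0.002), Top2a (0.63, adjusted p = 0.0047), Cenpf (0.80, adjusted p = 0.004), Espl1 (0.90, adjusted p = 0.00087) and Foxm1 (0.42, adjusted p = 0.015) higher, and did not call Cenpa (0.13, adjusted p = 0.39) or Spc25 (0.36, adjusted p = 0.093). Pttg1 stood at -0.71 (adjusted p = 0.0026). From normal to vector it called 40 higher, against 10.1% of all genes, and from normal to Myc 43, against 22.5% of all genes. The offset rests on the longest annotated transcript of each gene, and which transcript was expressed was not measured. Mad2l1, whose longest transcript has 7557 bases, stood at 1.42 from vector to Myc in place of 0.90. Without Myc lymphoma 5 and normal sample 2, an alternative also added after seeing the data, 34 rose and 2 fell from vector to Myc, 41 rose from normal to vector and 44 from normal to Myc. Of the 18027 genes in that fit 4496 rose and 4067 fell from vector to Myc. From normal to vector 1506 of them rose, and from normal to Myc 3464.

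Markers of other cells moved with the groups and are given beside these results. Of the 12 erythroid markers listed 9 were found. From normal to vector 9 of 9 rose (median log2 fold change 3.15), against 7.46% of all genes. From vector to Myc 2 of 9 rose, against 26.6% of all genes. With later runs as a term, and within the earlier runs, 0 of 9 were called at either step, with medians of 2.61 and 1.55 from normal to vector. From normal to Myc 9 of 9 rose (median 3.85), against 21.5% of all genes. In that comparison 9 of 9 rose with later runs as a term (median 3.88), against 20.6% of all genes. Within the earlier runs 8 of 9 rose from normal to Myc (median 3.55), against 12.7% of all genes. Their sum was 132, 1770, 130 and 123 CPM in normal samples, 2110 to 10600 CPM in vector and 3290 to 52700 CPM in Myc lymphomas (at most 27200 without Myc lymphoma 5), and none of the 9 was at 0 in any normal sample. Normal sample 2, with the highest erythroid sum of its group, was also the normal sample with the highest mitosis genes. The part of these cells in the mitosis genes was not tested.

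**Figure D5:**
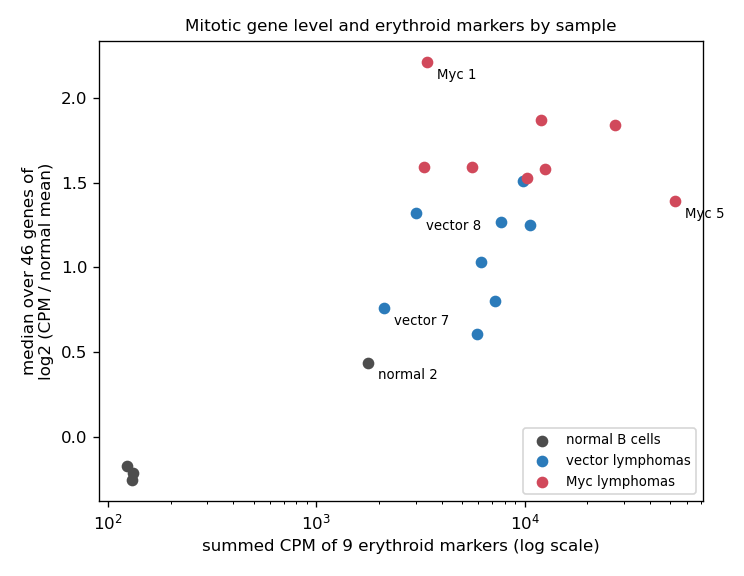
Median over the 46 genes of the log2 ratio to the normal mean (vertical) against the summed CPM of 9 erythroid markers (horizontal, log scale), 1 point per sample, coloured by group. Normal sample 2 sits apart from the other 3 normal samples on both axes, and all Myc lymphomas except Myc lymphoma 5 lie above 1.51, the highest vector lymphoma.

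Other marker lists differed as well. Over all genes 7.46% rose and 3.36% fell from normal to vector, and 26.6% rose and 21.9% fell from vector to Myc. From normal to Myc 21.5% of all genes rose. The 8 B cell markers, which check the label, had a median log2 fold change of 0.04 between vector lymphomas and normal cells, and 7 of them fell from vector to Myc (median -1.76), with a sum of 866 to 5460 CPM in Myc against 4990 to 8850 CPM in vector lymphomas. Without Myc lymphoma 5 the highest Myc value was 2820 CPM, and the groups did not overlap. Neutrophil and precursor markers rose in 12 of 12 cases from normal to Myc and in 7 of 12 from vector to Myc. With later runs as a term, and within the earlier runs, 0 of 12 rose from vector to Myc. Their sum was 85.2 to 1020 CPM in normal samples and 61.6 to 6570 CPM for vector (at most 1840 without vector lymphoma 8). For Myc lymphomas it was 1790 to 18100 CPM. NK and cytotoxic markers fell in 8 of 10 cases from normal to vector and rose in 9 of 10 from vector to Myc, with sums of 198 to 311 CPM in normal samples, 56.5 to 108 in vector and 207 to 721 in Myc lymphomas. Plasma cell markers rose in 5 of 6 cases from normal to vector and fell in 4 of 6 from vector to Myc, or 1 of 6 with later runs as a term. With that term 7 of 10 NK and cytotoxic markers rose and 6 of 8 B cell markers fell from vector to Myc. Over all genes 9.2% rose and 1742 of 17824 fell at that step with the term. The part of these cells in the mitosis genes was not tested.

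Genes of neighbouring processes that are not among the 46 were read from 9 lists with 149 genes in all. From vector to Myc 58 rose and 13 fell, from normal to vector 47 rose and 0 fell, and from normal to Myc 86 rose and 10 fell. Over all genes 26.6% rose and 21.9% fell from vector to Myc, 7.46% rose and 3.36% fell from normal to vector. From normal to Myc 21.5% of all genes rose and 17.9% fell. With later runs as a term 37 rose and 1 fell from vector to Myc, 22 rose from normal to vector, and 84 rose and 9 fell from normal to Myc. With that term 9.2%, 4.86% and 20.6% of all genes rose in these comparisons. Of 17824 genes 1742 fell from vector to Myc and 2900 from normal to Myc. Within the earlier runs 9, 0 and 77 rose, against 2.97%, 0.621% and 12.7% of all genes. Among the DNA replication genes of S phase 19 of 28 rose from normal to vector and 18 of 28 from vector to Myc, with medians of 0.84 and 0.48 (8 and 14 of 28 with later runs as a term). Gins1, a subunit of the replicative helicase, was 3.02-fold higher in the Myc than in the vector group (4.29 ± 1.17 SD CPM in normal, 6.39 ± 1.63 in vector and 19.3 ± 9.05 in Myc samples, adjusted p = 3.9e-05), and Tyms, the enzyme that makes thymidylate, was 2.33-fold higher (adjusted p = 0.00025).

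Other kinetochore and checkpoint genes rose in 16 of 32 cases and fell in 3 from vector to Myc (9 and 0 with later runs as a term). For this list and the next, 26.6% of all genes rose and 21.9% fell at that step. With later runs as a term 9.2% of all genes rose. Cenpw, a centromere protein, was 4.87-fold higher (adjusted p = 6.9e-06) and Trip13, the ATPase that dismantles the checkpoint complex, 2.71-fold (adjusted p = 2.6e-06). Other entry regulators rose in 7 of 10 cases (4 with later runs as a term), with Cks1b, a small subunit that binds Cdk1, 3.31-fold higher (adjusted p = 3.1e-05) and Ensa, an inhibitor of the phosphatase that opposes Cdk1, lower (log2 -0.63 ± 0.11, adjusted p = 0.00012, or -0.36 and 0.054 with later runs as a term).

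From vector to Myc the lists of the larger complexes and of MuvB and its related factors had shares of calls near or below those over all genes. Over all genes 26.6% rose and 21.9% fell at that step. From normal to vector 3 of 13 cohesin genes rose, against 7.46% of all genes. Of 17 subunits and regulators of the anaphase promoting complex 4 rose and 1 fell from vector to Myc (median 0.12), Anapc2, the cullin subunit, being lower (log2 -0.66 ± 0.12, adjusted p = 0.00026, or -0.33 and 0.12 with later runs as a term) and Fbxo5, the inhibitor Emi1, 1.48-fold higher (adjusted p = 0.0024). Of 13 cohesin genes 2 rose and 1 fell (median -0.25): Smc1a, a core subunit, was lower (log2 -0.79 ± 0.17, adjusted p = 0.00083, or -0.26 and 0.33 with later runs as a term), and Cdca5, the cohesin protector sororin, was 1.78-fold higher (adjusted p = 0.0011). Of 13 genes for MuvB, B-Myb, E2F4, the pocket proteins and NF-Y 3 rose and 2 fell (median -0.14), with Tfdp1, the E2F partner, 2.15-fold higher (adjusted p = 7.7e-06) and Lin52, a MuvB subunit, lower (log2 -1.08 ± 0.17, adjusted p = 4.9e-05).

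Of the centrosome and spindle assembly genes 6 of 22 were higher and 5 lower from vector to Myc, shares close to the 26.6% and 21.9% of all genes. With later runs as a term 3 were higher and 0 lower, where 9.2% of all genes rose. Ckap2 was 2.29-fold higher (adjusted p = 2.9e-05) and Kpna2, an importin that regulates Tpx2, 2.44-fold higher (adjusted p = 0.00024). Of 11 other mitotic motors and cytokinesis genes, 1 rose from vector to Myc, Racgap1, the centralspindlin partner of Kif23 (1.54-fold, adjusted p = 0.00044), where 5 had risen from normal to vector. With the length offset 7 of the 11 rose from vector to Myc, against 26.0% of all genes. Of the 3 condensin II genes Ncapg2 rose from vector to Myc (1.61-fold, adjusted p = 0.043, or 0.15 with later runs as a term), and Ncapd3 had a log2 difference of 0.32 ± 0.18 (adjusted p = 0.16, or 0.62 and 5e-05 with the length offset).

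The genes also differed among samples of 1 group. Vector lymphoma 2 was the highest of its group for 24 of the 46 genes and vector lymphoma 4 the lowest for 16, and Myc lymphoma 1 was the highest of its group for 26. The median log2 ratio to the normal mean was 1.51 in vector lymphoma 2, 0.61 in vector lymphoma 4 and 2.21 in Myc lymphoma 1. For the S phase genes vector lymphoma 2 (1.28) and Myc lymphoma 1 (1.82) were again the highest of their groups, and vector lymphoma 7 (0.41) lay below vector lymphoma 4 (0.56). When each sample was left out in turn, 29 to 36 genes were called from vector to Myc, 27 to 41 from normal to vector and 42 to 44 from normal to Myc. The 10 genes lost from normal to vector without normal sample 4 were Anln, Cenpe, Cenpf, Espl1, Kif11, Mki67, Ndc80, Spc25, Top2a and Ttk (adjusted p = 0.055 to 0.13), and all of these but Anln were also lost without normal sample 1 or 3. Ttk and Cenpf were further lost without several of the lymphomas. Bub1 and Ube2c passed the test from normal to vector without normal sample 2 (log2 0.98 and 1.97, adjusted p = 0.032 and 0.027) or Myc lymphoma 5.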

How the data were processed

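Poly-adenylated RNA of 20 samples in 3 groups was sequenced with Ion Proton chemistry (labels' protocols). The deposited values are raw read counts per Ensembl gene, 1 column per sample; the tools in the submitters' processing notes are HTSeq, Picard 1.119 and BWA 0.7.5a, and the genome builds are NCBIM37 and mm9, without their order or use. The 5 lines for reads assigned to no gene were left out; 37.1 to 57.0% of the reads listed per sample were counted to genes. Gene names (32897 of 37620 identifiers matched) and the longest transcript of each gene came from GENCODE vM21; no coordinates were taken from it. Promoter windows came from RefSeq (GRCm38.p6).

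Counts were filtered with filterByExpr by group (17824 genes kept), given TMM factors, and compared by the two-sided quasi-likelihood F test of edgeR 4.0.16 in 1 model of all 20 samples, with Benjamini-Hochberg adjustment over all genes tested and a threshold of 0.05. The common biological coefficient of variation was 0.465. SE is the standard error of a log2 fold change and SD the standard deviation over samples. The 3 comparisons are vector with normal, Myc with vector and Myc with normal. Groups were said not to overlap where the lowest sample of the higher group exceeded the highest of the lower.

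Run sets were read from run numbers per instrument in the labels, which does not show when RNA was extracted or libraries made. Alternatives were DESeq2 1.42.0, RLE size factors, no filter, only the 2 groups compared, later runs as a term, earlier runs only, each sample left out and a 2-fold minimum. A length offset and leaving out Myc lymphoma 5 with normal sample 2 were added after seeing the data. The offset is a loess curve of span 0.3 on log2 transcript length in each sample, available for 95% of the genes tested. It was fitted to the deviation of each gene's log2 CPM from the mean of that gene over all samples.

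The 46 genes, the 7 role groups, the 9 lists of neighbouring processes and the 8 marker lists (B cell, erythroid, NK and cytotoxic, T cell, plasmacytoid dendritic, neutrophil and precursor, macrophage and monocyte, plasma cell) were chosen with earlier results of these data known. Values in every sample were to be given for the genes with the smallest and the largest p between Myc and vector lymphomas in each role group and for Cdk1, Ccnb1, Ccnb2, Cdc25b, Cdc25c, Foxm1, Mki67 and Bub3; Ube2c, Plk1 and Ndc80 were added after their values were seen. Each list of neighbouring processes is shown by its 2 genes of smallest p. T cell markers changed in both directions from vector to Myc (3 of 10 higher, 2 lower), as did plasmacytoid dendritic markers (4 of 8 higher, 2 lower) and macrophage and monocyte markers (1 of 10 higher, 2 lower); with later runs as a term these counts were 2 and 0, 4 and 1, and 0 and 2. Reads aligned to more than 1 place were not counted to genes, so genes with near-identical copies, such as Hba-a1 and Hba-a2, are uncertain.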

Additional observations from a re-analysis of the deposited data

Results flagged for a closer look

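In 16 of 138 sets of gene and group the highest sample was separated from the rest of its group by a wide gap (a gap to the next sample that is large against the whole range, which chance gives in about 1 of 20 sets). They came from 3 samples. Genes share their samples, so these sets are not independent.

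Normal sample 2 stood above the other 3 normal samples for Ccna2 at 43.7 CPM (others 17.4 to 19.9), Plk1 at 14.0 (8.96 to 9.21), Nuf2 at 14.7 (6.08 to 7.22) and Kif2c at 10.2 (5.98 to 6.65). It also did so for Hmmr at 17.9 CPM (8.63 to 9.62), Prc1 at 28.8 (14.9 to 16.6), Ncaph at 22.6 (14.5 to 14.7) and Mki67 at 401 (152 to 186). The erythroid marker sum of that sample was 1770 CPM, and its part in these values was not tested.

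Myc lymphoma 5 stood above the other 7 Myc lymphomas for Ube2c at 492 CPM (89.7 to 198), Pttg1 at 67.8 (14.9 to 23.4), Cenpa at 128 (58.7 to 80.9), Spc24 at 68.6 (19.2 to 34.2) and Birc5 at 160 (62.4 to 96.5). This sample had the strongest tilt towards short transcripts and the highest erythroid sum, 52700 CPM, and the part of either in these values was not tested. Myc lymphoma 1 stood apart for 3 kinetochore and microtubule genes, Ndc80 at 30.6 CPM (14.6 to 21.7), Nuf2 at 42.5 (23.9 to 30) and Kif2c at 38.6 (20.6 to 28.1).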

How the results depend on the processing

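From vector to Myc lymphomas the count of genes called higher, 29, became 13 with later runs as a term, 2 within the earlier runs and 12 with a 2-fold minimum. The count called lower, 1, became 0 in each of these 3, and 2 with the length offset or without Myc lymphoma 5 and normal sample 2. With each sample left out it ran from 1 to 2. From normal to vector the count called higher, 37, became 0 within the earlier runs, where 2 vector lymphomas met 3 normal samples. DESeq2, RLE size factors, no filter and the fit of only the 2 groups compared kept the counts within 1.5-fold. Directions turned for genes with small differences. Between Myc and vector lymphomas Ndc80 was 0.08 with later runs as a term and 0.01 within the earlier runs, and Cenpe ran from -0.06 to 0.20 with each sample left out. Smc4 was 0.24, 0.19, 0.14 and 0.04 with later runs as a term, within the earlier runs, with the length offset and with both samples left out, and ran from -0.15 to 0.04 with each sample left out. From normal to vector Smc4 was -0.13 with later runs as a term, -0.0002 within the earlier runs, and ran from -0.01 to 0.28. From normal to Myc it was 0.01 in the fit of 2 groups, 0.11, 0.19, 0.25 and 0.09 under the other 4 settings in the order above, and ran from -0.10 to 0.19; Pttg1 was -0.03 with both samples left out. The cause of these shifts was not tested. No paired analysis was possible because the replicate numbers only follow the order of the samples and pair none of them across groups.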
